A study of Homo sapiens with 18 samples.

Results

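The transcripts of the KDEL receptors (KDELR1, KDELR2 and KDELR3) and of 7 p24 cargo receptors (TMED2, TMED3, TMED4, TMED5, TMED7, TMED9 and TMED10) were followed through senescence and inhibition of protein N-myristoylation. The 10 genes were taken by symbol from a table of raw read counts with 28266 gene rows, and all 10 passed the filter on low counts, among 14341 genes tested. Poly(A) RNA had been sequenced from IMR90 ER:RAS cells in 18 bulk libraries, 3 in each of 6 groups. IMR90 cells are human lung fibroblasts. The ER:RAS construct, delivered by retrovirus, joins oncogenic RAS to the ligand-binding domain of the oestrogen receptor and is switched on by 4-hydroxytamoxifen (4OHT). Every group carried ER:RAS, although the labels give the genotype as WT. Senescent cells had received 100 nM 4OHT and control cells DMSO. After 7 days, each kind was given DMSO, IMP1088 at 300 nM or DDD86481 at 1.5 µM for 3 days and collected on day 10. Both compounds inhibit N-myristoyltransferases. No cells without ER:RAS were given 4OHT in these libraries, so effects of 4OHT and of RAS cannot be told apart.

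Library totals ran from 16143716 to 23189950 counts, and the 10 genes held between 1627 and 13764 counts in a library. All 10 fibroblast markers were detected in every library, with a summed level from 24831 to 31466 normalized counts (CPM, scaled to a common library size) in control libraries with DMSO and from 30619 to 36275 CPM with an inhibitor. In senescent libraries this sum was 16646 to 17064 CPM with DMSO and 11559 to 12347 CPM with an inhibitor. Endothelial markers summed to 1.09 to 1.89 CPM in control and 24.6 to 33.9 CPM in senescent libraries with DMSO, and to 2.62 to 3.79 and 11.2 to 20.4 CPM with an inhibitor. Epithelial markers summed to 29.8 to 41.4 CPM in control and 10.7 to 12.5 CPM in senescent libraries with DMSO, and to 7.11 to 8.38 and 11.1 to 16.3 CPM with an inhibitor. Leukocyte markers summed to at most 1.1 CPM, and SFTPC and CD3E were at 0 in every library. The part of these shifts in the results below was not tested. In bulk RNA, fewer cells of a type and less RNA per cell cannot be told apart. The study reports that both inhibitors, in a longer treatment than here, selectively killed senescent ER:RAS cells. Whether a loss of cells shaped the senescent libraries with an inhibitor was not tested. The study describes the replicates of these treatments as independent experiments, while the labels do not say which libraries shared one. For several of the genes, control DMSO replicate 3 and senescent DDD86481 replicate 1 stood apart from the other libraries of their groups, and values without them are given where a call changed. Over all genes tested, control DMSO replicate 3 also had the lowest mean correlation with its group, an r of 0.983 in log2 CPM.

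Proteins that work inside the endoplasmic reticulum (ER) leak forward to the Golgi with secreted cargo. KDEL receptors bind the KDEL-like signal at the carboxyl terminus of these escaped residents, such as the chaperone BiP, and carry them back in COPI-coated vesicles. The p24 proteins span the membrane once, assemble with each other across the alpha (TMED4, TMED9), beta (TMED2), gamma (TMED3, TMED5, TMED7) and delta (TMED10) subfamilies, and cycle between ER and Golgi. They help to load cargo such as GPI-anchored proteins into COPII vesicles, and their cytosolic tails bind COPI. COPI coats are recruited to Golgi membranes by ARF GTPases, which carry an N-terminal myristate.

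The 10 genes lie apart from each other. By RefSeq on GRCh38.p14, KDELR1 is on chromosome 19 (48382575 to 48397412), KDELR2 on chromosome 7 (6461089 to 6484152) and KDELR3 on chromosome 22 (38468096 to 38483447). The p24 genes are TMED2 on chromosome 12 (123584552 to 123598582), TMED3 on chromosome 15 (79311112 to 79413886), TMED4 on chromosome 7 (44577894 to 44582231), TMED5 on chromosome 1 (93149742 to 93180413), TMED7 on chromosome 5 (115613210 to 115626036), TMED9 on chromosome 5 (177592203 to 177597242) and TMED10 on chromosome 14 (75131469 to 75176612).

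The promoter of KDELR3 is shown because its window holds a motif of the unfolded protein response, the programme that raises ER folding and transport genes. RefSeq promoter windows, from 250 bases before to 50 bases after the start, were found for 7 of the 10 genes and not for KDELR2, TMED4 and TMED9. For KDELR1 the 250 bases before the start (chr19:48391552-48391801, minus strand) lie inside the RefSeq span of the gene. Bases before the outer end of that span were not searched. All 7 windows were treated alike. The windows were searched on both strands for motifs of this response. Of the 7 windows, that of KDELR3 alone held the UPRE, TGACGTGG, which XBP1 can bind. It lies on the reverse strand, from 46 to 39 bases before the start, so that it reads CCACGTCA on the strand of the gene. This motif is in 0.729% of 35116 promoter windows and in 0.761% of 22199 windows of protein-coding genes. The 250 bases before the start of KDELR3 (GRCh38.p14, chr22:38467846-38468095, plus strand) are given with the UPRE in capitals.
KDELR3: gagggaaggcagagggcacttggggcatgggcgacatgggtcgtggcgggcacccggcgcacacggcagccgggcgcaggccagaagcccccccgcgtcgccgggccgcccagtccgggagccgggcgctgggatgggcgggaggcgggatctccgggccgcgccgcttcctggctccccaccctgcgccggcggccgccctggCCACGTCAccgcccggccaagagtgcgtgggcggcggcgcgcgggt
None of the 7 windows held the ERSE (CCAAT and CCACG 9 bases apart, in 0.0769% of all windows), the ERSE-II (ATTGG and CCACG 1 base apart, in 0.0541%) or the ATF4 composite site (TGATGNAA, in 3.62%). The short element CCACG was added to the search later and overlaps the UPRE of KDELR3. This element occurred in all 7 windows, in 38.1% of all windows and in 43.1% of windows of protein-coding genes. A match of letters is a description of the window and not a bound site.

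Per kilobase of the MANE Select transcript, so that genes could be compared, the order of levels in control cells with DMSO began with KDELR2 at 179 ± 19.2 CPM per kb (SD, n = 3 libraries, as for all levels) and KDELR1 at 177 ± 28.9 CPM per kb, whose libraries overlapped. TMED2 followed at 142 ± 5.61 CPM per kb. TMED3 (101 ± 24.8 CPM per kb), TMED9 (98.7 ± 17.4) and KDELR3 (83.1 ± 11.2) overlapped each with the next in the order. TMED10 (67.6 ± 1.97 CPM per kb) came next, then TMED4 (35.6 ± 0.638) and TMED7 (33.7 ± 3.7), which overlapped, and TMED5 was lowest at 18.8 ± 2.13. In senescent cells with IMP1088 the 3 KDEL receptors came first and did not overlap with each other, with KDELR1 at 281 ± 5.86 CPM per kb, KDELR3 at 258 ± 4.1 and KDELR2 at 213 ± 7.26. TMED2 (202 ± 6 CPM per kb) overlapped with KDELR2, and TMED5 was again the lowest (21.5 ± 0.974).

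**Figure D1:**
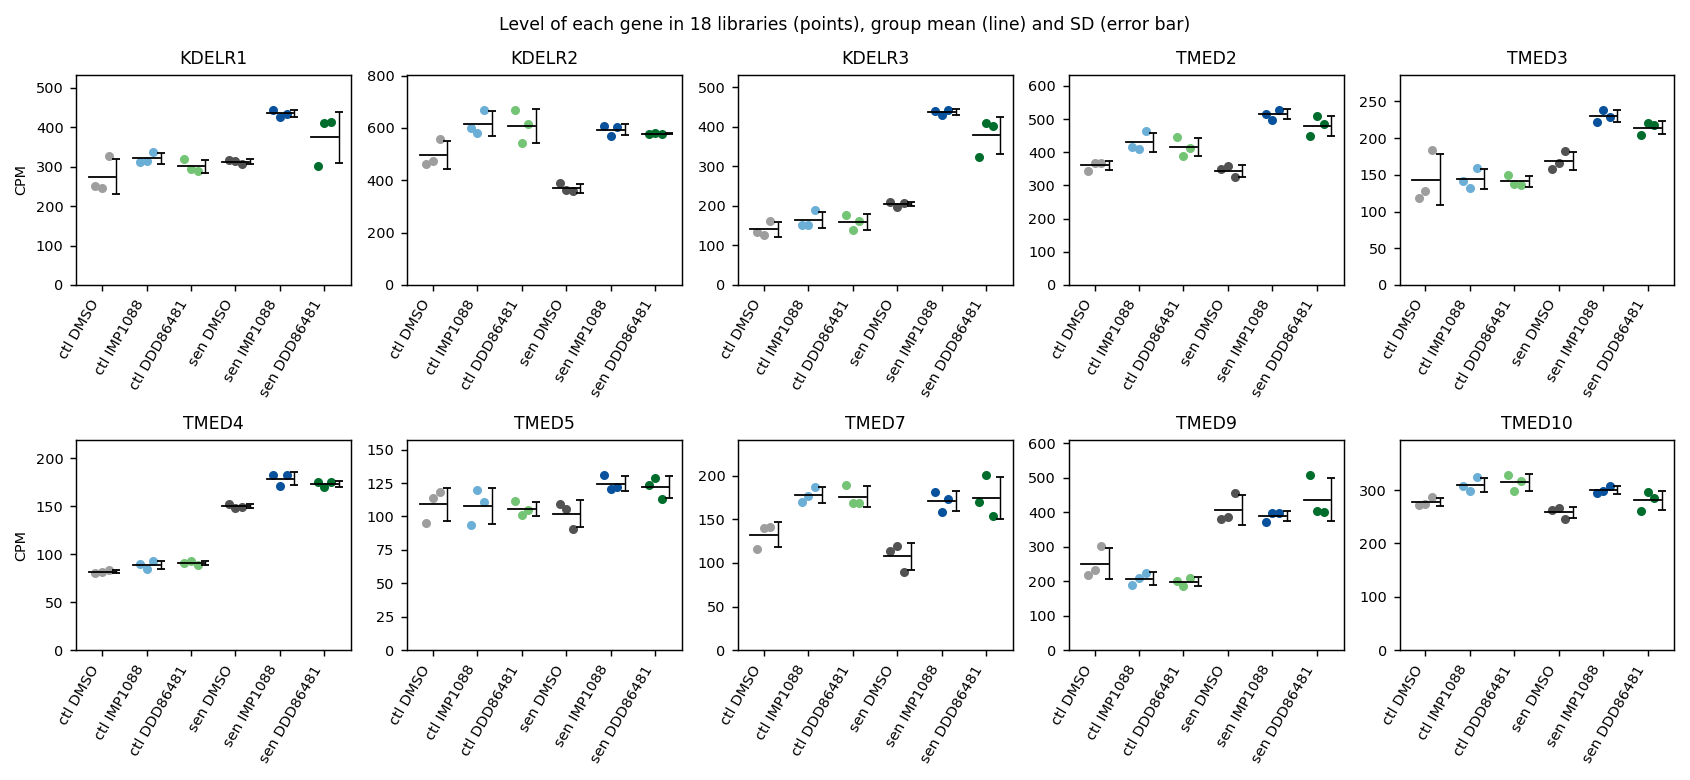
CPM (vertical axes, from 0) of each of the 10 genes in the 6 groups (ctl, control; sen, senescent), with a point for each library, a line at the group mean and an error bar of 1 SD. KDELR3, TMED4 and TMED9 separate by state. KDELR2, TMED2, TMED5, TMED7 and TMED10 have their lowest group mean in senescent cells with DMSO. KDELR3 is highest in the senescent libraries with inhibitor, from 324 to 444 CPM.

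The first comparison, without inhibitor, set senescent cells against control cells. Of the 10 genes, 3 were higher and 2 lower in senescent cells, where 68.5% of all genes tested passed the threshold of an adjusted p under 0.05 (edgeR's quasi-likelihood test). The KDEL receptors diverged, with KDELR3 higher, KDELR2 lower and KDELR1 not past the threshold. Both p24 genes of the alpha subfamily, TMED4 and TMED9, were higher, and TMED7 was lower. The median log2 fold change of the 10 genes was 0.06, against -0.05 for all genes.

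KDELR3 had 135, 126 and 162 CPM in control DMSO libraries and 209, 198 and 207 CPM in senescent DMSO libraries. The groups did not overlap, and the log2 fold change was 0.54 ± 0.12 (SE; adjusted p = 0.000372). KDELR2 had 462, 472 and 559 CPM in control and 390, 364 and 357 CPM in senescent libraries, every senescent value lying under every control value. It fell by 0.43 ± 0.094 on the log2 scale (adjusted p = 0.000479). KDELR1 had 275 ± 44.8 CPM in control and 313 ± 5.73 CPM in senescent libraries, a log2 fold change of 0.19 ± 0.11 (adjusted p = 0.151). Control DMSO replicate 3 held 327 CPM of KDELR1, above all 3 senescent libraries, and without it the log2 fold change of KDELR1 was 0.33 (adjusted p = 0.00744).

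TMED4, an alpha p24 protein, had 80.4, 81.3 and 83.2 CPM in control libraries and 153, 148 and 150 CPM in senescent libraries. The 2 groups lay far apart for their spread, and the log2 fold change of 0.88 ± 0.071 (adjusted p = 8.04e-10) was the largest of the 10 genes in this comparison. TMED9, the other alpha p24 protein, had 219, 233 and 302 CPM in control and 379, 385 and 457 CPM in senescent libraries, with no overlap and a log2 fold change of 0.70 ± 0.12 (adjusted p = 3.52e-05). TMED7, of the gamma subfamily, had 115, 140 and 141 CPM in control and 113, 120 and 89.4 CPM in senescent libraries. These groups overlapped, and the fall by 0.30 ± 0.12 on the log2 scale (adjusted p = 0.0274) lost its call without senescent DMSO replicate 3 (adjusted p = 0.187), control DMSO replicate 2 (0.067) or control DMSO replicate 3 (0.0668).

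The other 4 p24 genes did not pass the threshold. TMED2 had 360 ± 14.3 CPM in control and 344 ± 18.2 CPM in senescent libraries (adjusted p = 0.49). TMED10 had 278 ± 8.11 and 258 ± 10.5 CPM (adjusted p = 0.235), and TMED5 had 109 ± 12.4 and 102 ± 9.94 CPM (adjusted p = 0.431). TMED3 had 144 ± 35.1 and 169 ± 12.4 CPM (adjusted p = 0.0965). Control DMSO replicate 3 held 184 CPM of TMED3, and without this library TMED3 was called, with a log2 fold change of 0.45 (adjusted p = 0.000143). Relative to the TMM scaling used here, upper quartile scaling moved the all-gene median by -0.15 (log2). Under it TMED2 (-0.22), TMED5 (-0.25) and TMED10 (-0.26) were also called lower, so the small differences of these 3 genes depend on the scaling.

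The next comparisons asked what each inhibitor did in senescent cells. With IMP1088, 9 of the 10 genes rose and none fell, where 44.4% of all genes passed the threshold in either direction. With DDD86481, 6 rose and none fell, where 43.2% of all genes passed. The median log2 fold change of the 10 genes was 0.46 with IMP1088 and 0.30 with DDD86481, against -0.04 for all genes in both. Both comparisons used the same 3 senescent DMSO libraries. KDELR3 rose most with each inhibitor, and TMED9 changed least with each.

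**Figure D2:**
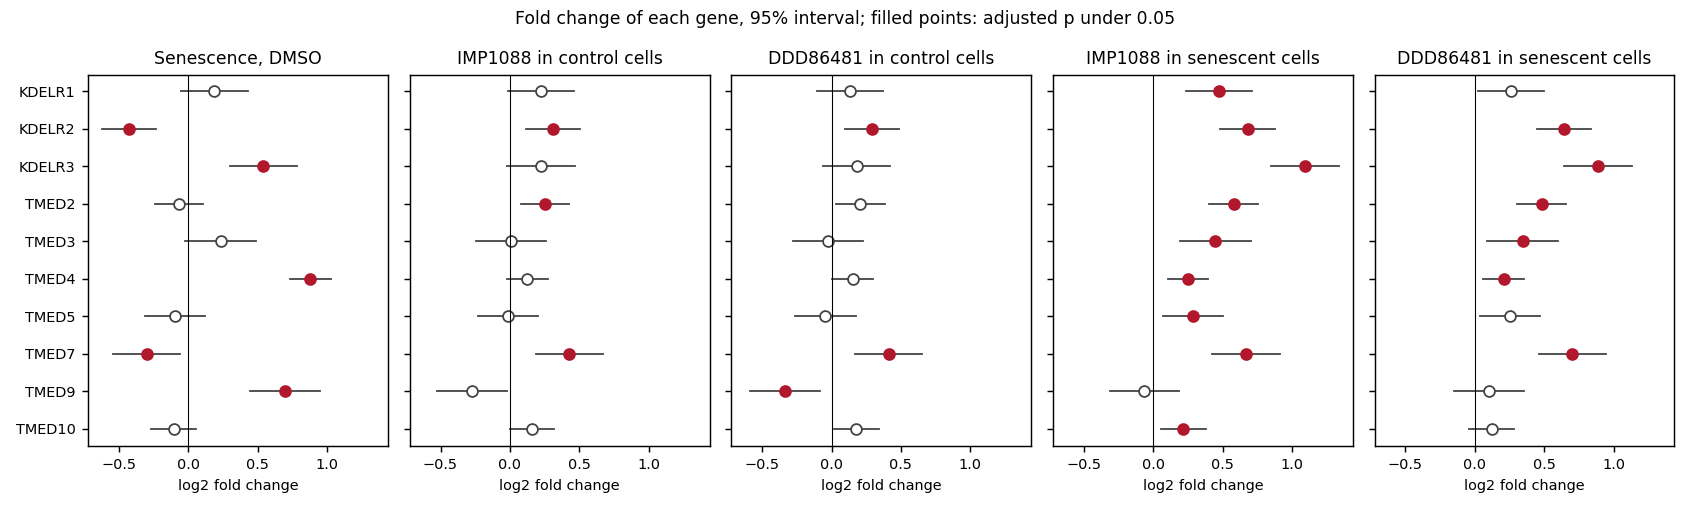
Log2 fold change (horizontal axes) of each gene in senescence without inhibitor and with each inhibitor in control and senescent cells; lines are 95% intervals and filled points have an adjusted p under 0.05. In senescent cells 9 genes are filled with IMP1088 and 6 with DDD86481, all to the right of 0, and in control cells 3 and 3.

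Among the KDEL receptors in senescent cells, KDELR3 had 439, 430 and 444 CPM with IMP1088 and 324, 409 and 402 CPM with DDD86481, against 198 to 209 CPM with DMSO. Every treated library lay above every DMSO library. The rise was 2.14-fold with IMP1088 (log2 fold change 1.10 ± 0.12, adjusted p = 3.04e-07) and 1.85-fold with DDD86481 (0.89 ± 0.12, adjusted p = 4.45e-06). Without senescent DDD86481 replicate 1, the lowest of its group, the latter was 0.99 on the log2 scale. KDELR2 had 607, 570 and 602 CPM with IMP1088 and 578, 580 and 577 CPM with DDD86481, against 357 to 390 CPM with DMSO. These libraries did not overlap, and the log2 fold change was 0.68 ± 0.095 with IMP1088 (adjusted p = 7.97e-06) and 0.64 ± 0.095 with DDD86481 (adjusted p = 1.63e-05). With either inhibitor the libraries of KDELR2 in senescent cells lay above those of control cells with DMSO (462 to 559 CPM), a difference that was not tested.

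KDELR1 rose with IMP1088, from 313 ± 5.73 to 435 ± 9.09 CPM, with a log2 fold change of 0.48 ± 0.11 (adjusted p = 0.00203). With DDD86481 it had 301, 410 and 414 CPM, and replicate 1 lay below the DMSO libraries. The log2 fold change of 0.26 ± 0.11 did not pass the threshold (adjusted p = 0.0727). Without senescent DDD86481 replicate 1 the log2 fold change of KDELR1 was 0.40 and passed it (adjusted p = 0.00494).

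Of the p24 genes in senescent cells, TMED7 had 181, 158 and 173 CPM with IMP1088 and 170, 201 and 154 CPM with DDD86481, against 89.4 to 120 CPM with DMSO. No treated library reached down to the DMSO range. The log2 fold change was 0.67 ± 0.12 with IMP1088 (adjusted p = 9.66e-05) and 0.70 ± 0.12 with DDD86481 (adjusted p = 6.16e-05). TMED2, the only beta p24 protein, had 515, 498 and 528 CPM with IMP1088 and 448, 508 and 484 CPM with DDD86481, against 349, 359 and 324 CPM with DMSO. Again the groups did not overlap, and the log2 fold change was 0.58 ± 0.084 with IMP1088 (adjusted p = 1.27e-05) and 0.48 ± 0.084 with DDD86481 (adjusted p = 0.000107).

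TMED4, already higher in senescence, had 183, 171 and 183 CPM with IMP1088 and 175, 170 and 175 CPM with DDD86481, with no library in the DMSO range of 148 to 153 CPM. The log2 fold changes were small, 0.25 ± 0.07 (adjusted p = 0.0063) and 0.21 ± 0.07 (adjusted p = 0.0215). The second was lost without senescent DMSO replicate 2 (adjusted p = 0.0623) or senescent DDD86481 replicate 3 (adjusted p = 0.0511), and both calls of TMED4 were lost with no filter on low counts (adjusted p = 0.0661 and 0.159). TMED9 had 372, 398 and 398 CPM with IMP1088 and 508, 402 and 399 CPM with DDD86481, which overlapped with 379, 385 and 457 CPM with DMSO. Its log2 fold changes were -0.06 (95% interval -0.31 to 0.19) and 0.10 (-0.15 to 0.35), with adjusted p = 0.698 and 0.522. The latter was -0.02 without senescent DDD86481 replicate 1, and the former was 0.03 without senescent DMSO replicate 3.

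TMED3 went from 169 ± 12.4 CPM with DMSO to 230 ± 8.34 CPM with IMP1088 (log2 fold change 0.45 ± 0.12, adjusted p = 0.00522) and 214 ± 9.2 CPM with DDD86481 (0.34 ± 0.12, adjusted p = 0.0274). The call of TMED3 with DDD86481 was lost without senescent DMSO replicate 1 (adjusted p = 0.103), senescent DMSO replicate 2 (0.0716), senescent DDD86481 replicate 2 (0.0746) or senescent DDD86481 replicate 3 (0.063).

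TMED5 and TMED10 also rose with IMP1088, by small amounts. TMED5 went from 102 ± 9.94 to 125 ± 5.64 CPM (log2 fold change 0.29 ± 0.1, adjusted p = 0.0313) and TMED10, the delta p24 protein, from 258 ± 10.5 to 300 ± 7.23 CPM (0.22 ± 0.077, adjusted p = 0.0282). The call of TMED5 was lost without senescent DMSO replicate 3 (adjusted p = 0.157) or without senescent IMP1088 replicate 1 (0.111), 2 (0.0503) or 3 (0.0549). The call of TMED10 was lost without senescent DMSO replicate 1 (adjusted p = 0.0536) or 3 (0.103), without senescent IMP1088 replicate 1 (0.0512), 2 (0.0595) or 3 (0.0934), and with no filter on low counts (0.127). With DDD86481, TMED5 had 122 ± 8.13 CPM (adjusted p = 0.0561) and TMED10 had 281 ± 18.5 CPM (adjusted p = 0.221). TMED5 was called with DDD86481 without senescent DMSO replicate 1 (adjusted p = 0.0495) or senescent DDD86481 replicate 3 (adjusted p = 0.0421).

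In control cells fewer of the genes changed. With IMP1088, 3 of the 10 rose (TMED7, KDELR2 and TMED2), where 33.7% of all genes passed the threshold. With DDD86481, 2 rose (TMED7 and KDELR2) and TMED9 fell, where 36.6% of all genes passed, so that neither count stood above that of all genes. The median log2 fold changes of the 10 genes were 0.19 and 0.17, against 0.00 for all genes.

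TMED7 had 169, 177 and 187 CPM with IMP1088 and 190, 169 and 169 CPM with DDD86481, all above the control DMSO libraries at 115, 140 and 141 CPM. The log2 fold change was 0.43 ± 0.12 with IMP1088 (adjusted p = 0.00735) and 0.41 ± 0.12 with DDD86481 (adjusted p = 0.00909). KDELR2 had 600, 581 and 669 CPM with IMP1088 and 670, 541 and 614 CPM with DDD86481, against 462, 472 and 559 CPM with DMSO. DDD86481 replicate 2 lay within the DMSO range, and the other treated libraries lay above it. The log2 fold change was 0.31 ± 0.094 with IMP1088 (adjusted p = 0.0156) and 0.29 ± 0.094 with DDD86481 (adjusted p = 0.0208). The first call of KDELR2 was lost without control DMSO replicate 2 (adjusted p = 0.0508) or control IMP1088 replicate 3 (0.0616), and the second without control DMSO replicate 1 (0.063), control DMSO replicate 2 (0.0664) or control DDD86481 replicate 1 (0.0973).

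TMED2 had 415, 410 and 463 CPM with IMP1088 and 446, 390 and 413 CPM with DDD86481 in control cells, above the DMSO libraries at 344, 369 and 368 CPM. The change was called with IMP1088 (log2 fold change 0.25 ± 0.084, adjusted p = 0.0244) and not with DDD86481 (0.21 ± 0.084, adjusted p = 0.0571). The call of TMED2 with IMP1088 was lost without control DMSO replicate 1 (adjusted p = 0.062) or control IMP1088 replicate 3 (0.0976), and TMED2 passed with DDD86481 without control DDD86481 replicate 2 (0.0418). TMED9 had 189, 209 and 225 CPM with IMP1088 and 201, 186 and 210 CPM with DDD86481, against 219, 233 and 302 CPM with DMSO. The DDD86481 libraries lay below the DMSO libraries and the IMP1088 libraries overlapped with them. TMED9 fell by 0.34 ± 0.12 on the log2 scale with DDD86481 (adjusted p = 0.0341), and had a log2 fold change of -0.27 ± 0.12 with IMP1088 (adjusted p = 0.0846). Without control DMSO replicate 3 the change of TMED9 with DDD86481 was -0.18 (adjusted p = 0.212), and its call was also lost without control DDD86481 replicate 1 (0.0751) or 2 (0.103). Without control DMSO replicate 1 the change of TMED9 with IMP1088 was called (-0.36, adjusted p = 0.0224).

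KDELR3 and KDELR1 did not pass the threshold in control cells. KDELR3 had 152, 152 and 188 CPM with IMP1088 and 178, 139 and 162 CPM with DDD86481, which overlapped with the DMSO libraries at 126 to 162 CPM (adjusted p = 0.148 and 0.235). KDELR1 had 321 ± 14.5 and 301 ± 17 CPM (adjusted p = 0.137 and 0.384). Without control DMSO replicate 3, the highest of its group for both genes, KDELR3 (log2 fold change 0.34, adjusted p = 0.0294) and KDELR1 (0.37, adjusted p = 0.0101) were called with IMP1088 and not with DDD86481. TMED4 had 90, 84.8 and 92.6 CPM with IMP1088 and 91.3, 92.5 and 88.7 CPM with DDD86481, above the DMSO libraries, with adjusted p = 0.178 and 0.0947. The adjusted p of TMED10 was 0.119 and 0.0748, that of TMED3 0.967 and 0.896, and that of TMED5 0.927 and 0.775.

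To compare the states directly, the difference of each inhibitor's effect between states, senescent less control, was tested as an interaction. KDELR3 had the largest difference of the 10 genes with each inhibitor, 0.87 ± 0.16 on the log2 scale with IMP1088 (adjusted p = 0.000717) and 0.71 ± 0.16 with DDD86481 (adjusted p = 0.00364). These calls of KDELR3 held in every alternative run and without any single library, with adjusted p up to 0.00287 and 0.0123 when a library was left out. KDELR2 (0.37 ± 0.13, adjusted p = 0.0458) and TMED2 (0.33 ± 0.12, adjusted p = 0.0478) also passed with IMP1088, next to the threshold. With IMP1088 3 of the 10 genes passed, where 26.2% of all genes did, and with DDD86481 1 passed, where 30.3% did.

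With IMP1088, leaving out 1 library ended the interaction call of KDELR2 in 9 of 12 fits and that of TMED2 in 10 of 12. The largest adjusted p was 0.0981 for KDELR2, without control DMSO replicate 3, and 0.107 for TMED2, without senescent DMSO replicate 3. Without control DMSO replicate 3 the interaction of TMED2 was 0.31 (adjusted p = 0.0576). Both calls were also lost with no filter on low counts (adjusted p = 0.0736 for KDELR2 and 0.124 for TMED2). The call of KDELR2 held without control DMSO replicate 1 or 2 or control IMP1088 replicate 3, and that of TMED2 without control DMSO replicate 1 or control IMP1088 replicate 3. With DDD86481, the interactions of KDELR2 (0.35 ± 0.13, adjusted p = 0.0503), TMED9 (0.44 ± 0.17, adjusted p = 0.0565) and TMED2 (0.27 ± 0.12, adjusted p = 0.0856) lay just outside the threshold. They passed in 4, 5 and 1 of 12 fits that left out a library, with the lowest adjusted p at 0.0165 and 0.0381 for KDELR2 and TMED2, both without control DDD86481 replicate 1, and at 0.0153 for TMED9, without control DMSO replicate 1. TMED3 had interactions of 0.44 ± 0.17 and 0.37 ± 0.17 (adjusted p = 0.0646 and 0.109), and passed in 3 fits of 12 with IMP1088 and 2 with DDD86481. For TMED7, which rose in both states with both inhibitors, the differences were 0.24 (95% interval -0.10 to 0.58) and 0.29 (-0.05 to 0.63), with adjusted p = 0.287 and 0.182. TMED4 (0.12 and 0.05), TMED5 (0.30 and 0.30), TMED10 (0.06 and -0.06) and KDELR1 (0.25 and 0.13) did not pass either test.

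**Figure D3:**
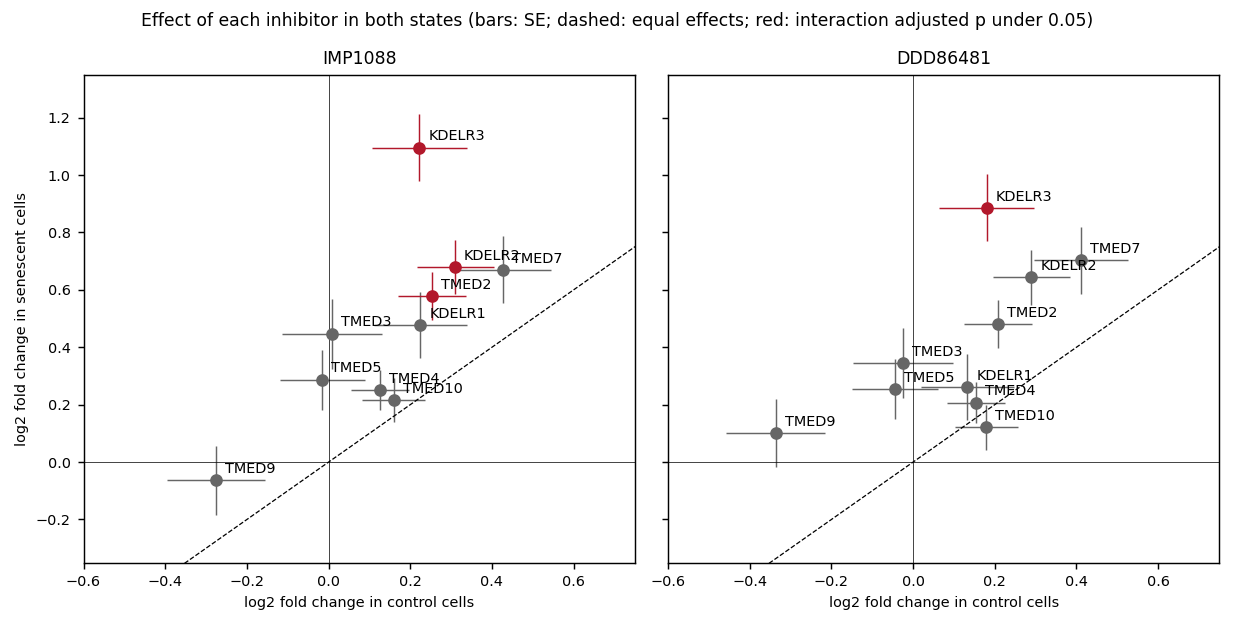
Log2 fold change with each inhibitor in control cells (horizontal axes) and in senescent cells (vertical axes), with SE bars; the dashed line marks equal effects and red points have an interaction with an adjusted p under 0.05. KDELR3 lies farthest above the line in both panels, and TMED4 and TMED10 lie closest to it.

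Because the 3 KDEL receptors moved by different amounts, their make-up was compared as shares of their summed CPM per kb. In control cells KDELR3 made up 18.9% ± 0.566 with DMSO, 18.4% ± 1 with IMP1088 and 18.5% ± 0.822 with DDD86481, and these libraries overlapped. In senescent cells its share was 26.5% ± 0.648 with DMSO, 34.3% ± 0.369 with IMP1088 and 33.1% ± 0.766 with DDD86481. Each senescent library was above each control library, and each treated senescent library above each senescent DMSO library. The share of KDELR2 went from 40.8% ± 1.23 in control to 29.2% ± 0.639 in senescent DMSO libraries. In senescent cells it was 28.3% ± 0.367 with IMP1088 and 31.1% ± 3.37 with DDD86481. The DDD86481 libraries (29.1% to 35%) overlapped with the senescent DMSO libraries (28.6% to 29.8%). KDELR1 held its largest share, 44.3% ± 0.587, in senescent cells with DMSO.

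**Figure D4:**
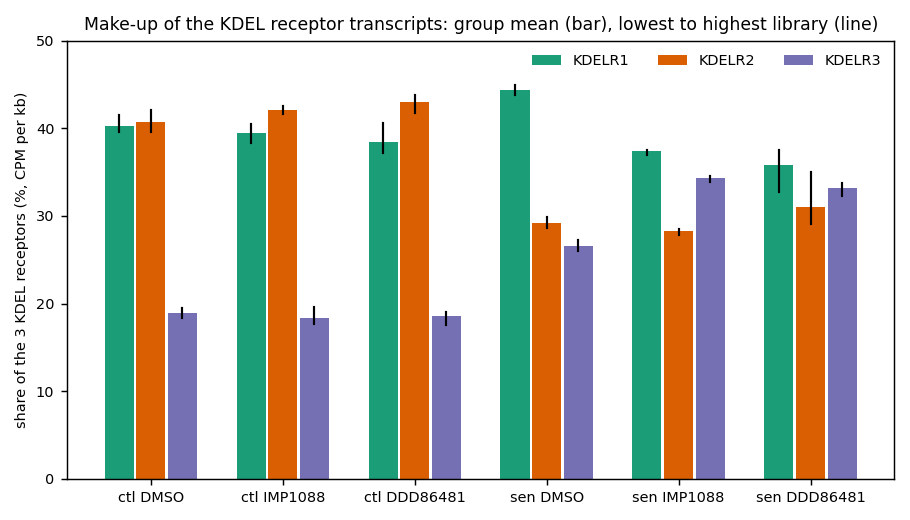
Share of each KDEL receptor in the summed CPM per kb of the 3 (vertical axis, percent), as the group mean (bars) with a line from the lowest to the highest of 3 libraries. The share of KDELR3 is near 18.5% in control groups, 26.5% in senescent DMSO libraries and 33.1% to 34.3% in senescent libraries with inhibitor.

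The summed level of the 3 receptors was 439 ± 58.9 CPM per kb in control and 456 ± 11.2 CPM per kb in senescent cells with DMSO, and these overlapped. It was 752 ± 16.1 with IMP1088 and 673 ± 69.2 with DDD86481 in senescent cells, above every senescent DMSO library. The 7 p24 genes summed to 497 ± 52.9 CPM per kb in control and 587 ± 11.8 in senescent cells with DMSO, and to 733 ± 10.6 and 721 ± 14 with the inhibitors in senescent cells. Within the p24 sum, TMED9 held 27.2% ± 2.42 in senescent cells with DMSO and 20.9% ± 0.664 with IMP1088, while TMED2 held 23% ± 1.54 and 27.5% ± 0.595, and in neither did the libraries overlap. With DDD86481 TMED9 held 23.8% ± 3.3, which overlapped with the DMSO libraries, and TMED2 held 26.2% ± 1.62, which did not. A ratio of summed ligand to summed receptor transcripts per kb was taken, for genes listed here as encoding proteins with KDEL-like signals. The ratio was 9.76 ± 0.161 in senescent cells with DMSO, 10.6 ± 0.334 with IMP1088 and 10.9 ± 1.8 with DDD86481. The IMP1088 libraries lay above the senescent DMSO libraries (9.59 to 9.91), and the DDD86481 libraries (9.78 to 12.9) overlapped with them. In control cells the ratio was 9.2 ± 0.811 with DMSO, 9.32 ± 0.174 with IMP1088 and 9.62 ± 0.589 with DDD86481, and these overlapped.

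Both inhibitors were also compared with each other, at doses that differ, so the test compares these treatments and not matched doses of the compounds. By edgeR's quasi-likelihood test, 0 of the 10 genes and 0% of all genes passed the threshold in senescent cells, and the same held in control cells. DESeq2 also called 0 genes in both states. Without adjustment, 570 of all genes in senescent cells and 141 in control cells had a p under 0.05, and 0 of the 10 genes did. Both counts are smaller than the share of 0.05 of the 14341 genes tested that this cut passes when nothing differs. In senescent cells the IMP1088 libraries of KDELR3 lay above the DDD86481 libraries, with a difference of 0.21 (95% interval -0.03 to 0.45 on the log2 scale), and without senescent DDD86481 replicate 1 it was 0.11. For KDELR1 the difference was 0.22 (-0.02 to 0.45), and without that library 0.08. The remaining 95% intervals for senescent cells ranged from -0.42 to 0.36, and such sizes of difference cannot be told from none here.

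Proteins that KDEL receptors may return were examined next, as a list of 43 genes taken to encode KDEL-like signals, of which 42 were tested. The ends of these proteins were not checked by sequence. In senescent cells 23 rose and 5 fell with IMP1088, and 24 rose and 6 fell with DDD86481, where 44.4% and 43.2% of all genes passed. In control cells 15 rose and 3 fell with each inhibitor, where 33.7% and 36.6% of all genes passed. The median log2 fold change of the list was 0.29 and 0.28 in senescent cells, against -0.04 for all genes, and 0.17 and 0.19 in control cells, against 0.00. In senescence without inhibitor 17 were higher and 7 lower, a smaller share than the 68.5% of all genes that passed, with a median of 0.13 against -0.05.

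HSPA5, which encodes BiP, went from 1171 ± 82.6 CPM in senescent cells with DMSO to 4648 ± 152 with IMP1088 and 3842 ± 303 with DDD86481, log2 fold changes of 1.99 ± 0.15 (adjusted p = 3.61e-09) and 1.71 ± 0.15 (adjusted p = 2.23e-08). P4HB, a protein disulphide isomerase, rose by 1.33 ± 0.1 and 1.17 ± 0.1 on the log2 scale, and RCN3, a calcium-binding protein of the ER, by 1.28 ± 0.13 with each. The interaction with senescence passed for P4HB (0.83 and 0.67) and RCN3 (1.07 and 1.08) with both inhibitors, and for HSPA5 with IMP1088 (0.77, adjusted p = 0.00887) and not with DDD86481 (0.48, adjusted p = 0.0784). COLGALT2, a collagen galactosyltransferase, fell by 1.29 ± 0.42 on the log2 scale with IMP1088 from a low level of 1.63 ± 0.558 CPM. The other 4 that fell with IMP1088, named after their values were seen, were P3H2 and COLGALT1, which also modify collagen, FKBP9, a prolyl isomerase, and POGLUT1, a glucosyltransferase.

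Of 22 other cargo receptors and proteins that tether returning vesicles at the ER, 13 rose with IMP1088 and 12 with DDD86481 in senescent cells, and none fell, where 44.4% and 43.2% of all genes passed. In control cells 8 rose with each, and 3 fell with IMP1088 and 2 with DDD86481, where 33.7% and 36.6% passed. The median log2 fold change of the list was 0.33 with each inhibitor in senescent cells, against -0.04 for all genes, and 0.10 and 0.07 in control cells, against 0.00. MIA2, which helps to export large cargo, rose by 1.22 ± 0.14 and 1.19 ± 0.14 on the log2 scale in senescent cells. SEC22B, a SNARE of ER and Golgi traffic, rose by 1.02 ± 0.11 and 0.93 ± 0.11. ZW10, of the tether that receives COPI vesicles, rose by 0.95 ± 0.1 and 0.83 ± 0.1. BNIP1, a SNARE at the same site, rose by 0.76 ± 0.18 and 0.69 ± 0.18. In control cells MIA2 (0.89 and 0.90), SEC22B (0.55 and 0.53) and ZW10 (0.37 and 0.33) also passed, and BNIP1 (0.06 and 0.04) did not. The interaction with senescence passed for SEC22B and ZW10 with both inhibitors and for BNIP1 with IMP1088 only. It did not pass for MIA2 (0.33 and 0.30).

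Of 17 genes of the COPI coat and its ARF machinery, 8 rose and 1 fell with each inhibitor in senescent cells, and 7 rose in control cells, where 3 fell with IMP1088 and 4 with DDD86481. Of all genes, 44.4% and 43.2% passed in senescent cells, near the share of the list, and 33.7% and 36.6% in control cells. The median log2 fold change of the list was 0.27 and 0.30 in senescent cells, against -0.04 for all genes, and 0.16 in control cells with each, against 0.00. ARF4, a myristoylated GTPase, rose most, from 393 ± 23 CPM in senescent cells with DMSO to 2093 ± 101 with IMP1088 and 1807 ± 213 with DDD86481, log2 fold changes of 2.41 ± 0.13 and 2.20 ± 0.13. In control cells it rose by 0.95 ± 0.13 and 0.88 ± 0.13. ARFGAP1 (0.70 and 0.78) and ARFGAP3 (0.57 and 0.60), which switch ARF proteins off, and COPB1 (0.59 and 0.56), a coat subunit, also rose in senescent cells. In control cells ARFGAP1 passed as well (0.31 and 0.30), and ARFGAP3 and COPB1 did not. COPG2, a coat subunit named after its value was seen, fell by 0.44 ± 0.11 and 0.42 ± 0.11 on the log2 scale.

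**Figure D5:**
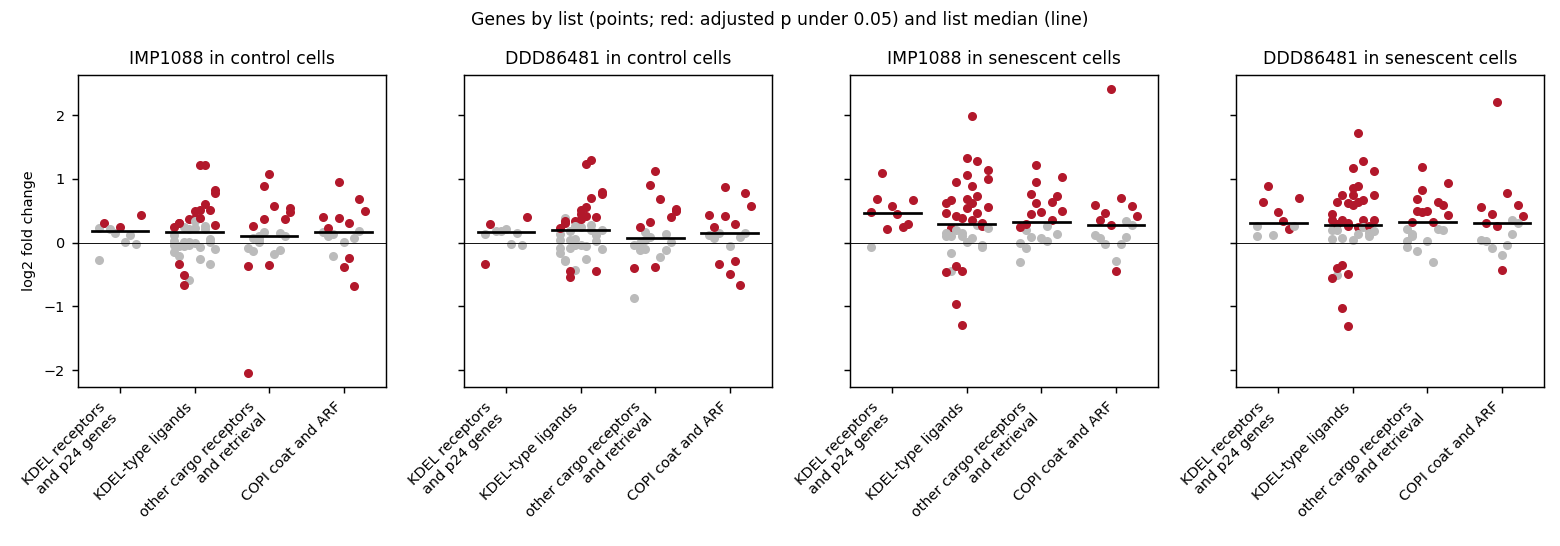
Log2 fold change (vertical axis) of each gene of 4 lists with each inhibitor in control and senescent cells; red points have an adjusted p under 0.05 and lines are list medians. In senescent cells the median of the KDEL receptors and p24 genes is 0.46 with IMP1088 and 0.30 with DDD86481, and ARF4 is the highest point of the COPI and ARF list.

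Of the other genes named TMED, TMED1 and TMED8 were tested, and TMED6 did not pass the filter on low counts. TMED1, a gamma p24 protein, passed the threshold in no comparison, with 41.9 ± 4.72 CPM in senescent cells with DMSO and 51 ± 0.648 with IMP1088 (adjusted p = 0.125). TMED8 rose in senescence, from 9.54 ± 2.49 to 20.8 ± 2.47 CPM (log2 fold change 1.12 ± 0.16, adjusted p = 3.23e-06). With IMP1088 in senescent cells TMED8 fell by 0.46 ± 0.16 on the log2 scale (adjusted p = 0.0214), in the opposite direction to the 9 genes that rose. With DDD86481 the log2 fold change of TMED8 was -0.32 ± 0.16 and did not pass the threshold (adjusted p = 0.102).

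The genes most like KDELR3 and TMED4, the receptor and the p24 gene with the widest range of group means (3.12-fold and 2.19-fold, with TMED9 next among the p24 genes at 2.18-fold), were found by Pearson's r of log2 CPM over the 18 libraries. These libraries fall into control and senescent clusters and share depth and treatment, so r is a description. For KDELR3 they were ARL2BP (0.986), ERI3 (0.985) and ICAM3 (0.985). ARL2BP had 84.8 ± 9.28 CPM in control and 101 ± 1.28 in senescent cells with DMSO, and 148 ± 3.86 and 139 ± 10.1 CPM with IMP1088 and DDD86481 in senescent cells. For TMED4 they were KIF1A (0.995), CXCL2 (0.995) and ADIPOR1 (0.994). CXCL2, a chemokine, had 0.754 ± 0.311 CPM in control and 91.8 ± 5.63 CPM in senescent cells with DMSO, a far wider range than TMED4. Among the 10 genes, KDELR3 was most like TMED3 (0.943) and TMED4 (0.907), and KDELR2 was most like TMED7 (0.914) and TMED10 (0.847), while KDELR2 and KDELR3 had an r of 0.23.

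Some counts could hold reads of neighbours, since the strand setting of the counting was not given in the sources used here. In GENCODE on GRCh37, KDELR2 shares 9.57% of its exonic bases with DAGLB on the same strand, and TMED7 shares 20% with the readthrough gene TMED7-TICAM2, whose own row held at most 2 counts in a library. On the opposite strand, TMED10 shares 7.93%, TMED2 7.41%, TMED7 6.07% and TMED5 5.03% with other genes, and KDELR3 shares 0.523% with DDX17. TMED10P1, a pseudogene copy of TMED10, held at most 5 counts in a library.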

How the data were processed

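Raw counts of reads by gene symbol for the 18 libraries, not normalized, were deposited by the authors in 1 table. The submitters' processing notes name hg38, DRAGEN, STAR 2.7.8a and DESeq2 1.32.0, and the study's methods name hg19, TopHat and Ensembl annotation for directional libraries. Which of these made the table, and the strand setting of the counting, are not given in the sources used here. Groups came from the labels.

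In R 4.3.3, edgeR 4.0.16 (filterByExpr, TMM scaling) was used for quasi-likelihood tests in 1 fit of all 18 libraries over 6 groups, with Benjamini-Hochberg adjustment over the 14341 genes tested and a threshold of 0.05. Standard errors and 95% intervals came from the same fit. CPM used the TMM library sizes. The prior count of log2 CPM was 2. Levels per kb used MANE Select transcript lengths. Promoters came from RefSeq (GRCh38.p14) and exon overlaps from GENCODE 44 lifted to GRCh37. Protein sequences were not used here.

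Depths of 16143716 to 23189950 counts left at least 1627 counts for each of the 10 genes in each library. Reads carried no molecular identifiers. Replicates differed by more than sampling noise (chi-square per gene of 5.26 or more), so none was taken for a duplicate. Control DMSO replicate 3 differed most, with a chi-square per gene of 104 against replicate 1 and 52.3 against replicate 2. No other pair of replicates was above 27.9. The test was checked on counts simulated for IMP1088 in senescent cells over 14245 genes, where 98 of 100 genes simulated at 2-fold passed, as did 62 of 100 at 1.5-fold and 10 of 14045 without a change.

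Pairing by replicate number was checked by correlating deviations from group means between same-numbered libraries. Every r was above 0.1 for IMP1088 in control cells (0.123 to 0.394) and for IMP1088 against DDD86481 in senescent (0.117 to 0.126) and control cells (0.101 to 0.27), and these were taken as paired, from the data alone. The tests given above used no replicate block, also for these comparisons, so their standard errors, intervals and adjusted p are unpaired. Blocked fits and the other alternatives are given in the closing section.

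All 10 genes were named. Values of every library were planned for genes past the threshold with a log2 fold change of at least 0.5 in size, and from each list at most 4 genes past the threshold that changed most with IMP1088 in senescent cells. The genes, lists and tests were chosen with earlier results of these data known.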

Additional observations from a re-analysis of the deposited data

Results flagged for a closer look

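The effect of an inhibitor differed between senescent and control cells in a test of the interaction for 4 pairs of gene and inhibitor. KDELR3 rose more in senescent cells with IMP1088, by 0.87 on the log2 scale (adjusted p = 0.000717, edgeR's quasi-likelihood test), and with DDD86481, by 0.71 (adjusted p = 0.00364). All 3 senescent libraries of each inhibitor lay above all senescent DMSO libraries. With IMP1088, KDELR2 (0.37, adjusted p = 0.0458) and TMED2 (0.33, adjusted p = 0.0478) lay next to the threshold, with all 3 treated libraries above the DMSO libraries in both states. Leaving out 1 library ended the call of KDELR2 in 9 of 12 fits and that of TMED2 in 10 of 12, and with no filter on low counts both were lost (adjusted p = 0.0736 and 0.124). Both inhibitors were set against the same DMSO libraries, so the results of KDELR3 with each are not independent of each other.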

How the results depend on the processing

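Where a count of the 10 genes past the threshold moved by over 1.5 times, the settings were as follows. In senescence it went from 5 to 8 with upper quartile scaling. With only the groups compared in the fit it went from 3 to 1 for IMP1088 and from 3 to 1 for DDD86481 in control cells, where the count over all genes went from 4829 to 2716 and from 5242 to 2842. DESeq2 gave 6 for DDD86481 in control cells. The interaction with DDD86481 went from 1 to 2 with DESeq2 size factors or no filter on low counts, to 3 with the replicate block and to 4 with upper quartile scaling or DESeq2. With no filter, 1 gene of all differed between the inhibitors in senescent cells. The cause was not tested.

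The replicate block gave 9 and 6 genes for IMP1088 and DDD86481 in senescent cells, 3 for each in control cells and 5 in senescence, as without it. The block changed no call among paired comparisons. In the interactions, whose numbers do not pair the libraries, it moved TMED2 (adjusted p = 0.0501) and TMED3 (0.0481) across the threshold with IMP1088, and KDELR2 (0.038) and TMED9 (0.0425) with DDD86481.

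Leaving out 1 library at a time gave 4 to 6 genes in senescence, 7 to 9 for IMP1088 and 4 to 7 for DDD86481 in senescent cells, 1 to 5 and 1 to 3 in control cells, 1 to 5 for each interaction, and 0 between the inhibitors. Changes of sign came among small log2 fold changes only. TMED9 ran from -0.11 to 0.027 with IMP1088 and from -0.021 to 0.19 with DDD86481 in senescent cells. In control cells TMED3 ran from -0.11 to 0.22 and from -0.14 to 0.19, and TMED5 from -0.11 to 0.086 and from -0.13 to 0.017, with IMP1088 and DDD86481. TMED3 with IMP1088 was -0.047 with upper quartile scaling. In the interaction with DDD86481, KDELR1 ran from -0.014 to 0.26 and TMED10 from -0.10 to 0.0085. Between the inhibitors in senescent cells, TMED5 ran from -0.018 to 0.075 and TMED7 from -0.12 to 0.079. In control cells the difference ran from -0.049 to 0.095 for KDELR2, -0.059 to 0.13 for KDELR3, -0.0026 to 0.098 for TMED2, -0.034 to 0.091 for TMED3, -0.047 to 0.0077 for TMED4, -0.052 to 0.12 for TMED5, -0.013 to 0.076 for TMED7 and -0.049 to 0.013 for TMED10. With 3 libraries a group, the 1.5-fold changes simulated were called in 62 of 100 genes. In that simulation 14045 of 14245 genes were unchanged, while in the data 44.4% of all genes passed with IMP1088 in senescent cells. The share called therefore cannot be carried over to the genes followed here. In that comparison TMED4 was called at a log2 fold change of 0.25 ± 0.07 (SE) and TMED10 at 0.22 ± 0.077. Both calls were lost with no filter on low counts, so small differences remain uncertain.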
